A study of Mus musculus with 34 samples.

Results

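The bromouridine nuclear run-on compared nascent RNA in nuclei from livers of mice bred to lose KMT5A in hepatocytes with that of wild-type livers. KMT5A, also called PR-Set7, SET8 or SETD8, is the enzyme that puts the first methyl group on lysine 20 of histone H4. One library was made from wild-type (WT) and 1 from knockout (KO) nuclei, with no replicate on either side. A gene was kept where it had at least 20 reads over both libraries, and 15449 of the 37583 genes listed did so. At the edge of this minimum lay 179 genes with 19 reads, which were left out, and 151 with exactly 20, which were kept. Any read at all was found for 29062 genes.

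The animals were F1 mice (C57Bl6/CBA) aged 45 days, kept on standard chow. WT animals had the genotype "Wild type" and KO animals Setd8lox/lox-Alb-Cre, in which both copies of the gene (Setd8 and Kmt5a are names of the same gene) carry loxP sites and Cre is driven by the albumin promoter. That promoter is active in hepatocytes and, in development, in the precursors they share with bile duct cells. RNA of all cells of the liver is in every library, and which cells lost the gene was not tested here. Neither group received a drug before the run-on. The labels do not say whether a library came from 1 animal or several, nor give sex, feeding state or time of day at death. In the series the same genotypes were also studied by ethynyl uridine (EU) labelling in the living animal, with 25 mg per kg injected 30 min before death and 1 library a side, and by mRNA sequencing with 3 libraries a side. Chromatin samples of the series were not analysed here.

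In a nuclear run-on, nuclei are isolated and chilled so that RNA polymerases halt on the DNA, then are allowed to extend for a few minutes in the presence of a brominated nucleotide. Here the reaction lasted 3 min. RNA that carries bromouridine is purified and sequenced, so the reads mark where polymerases were engaged, whether or not the RNA would later have become stable. RNA polymerase II often halts shortly after the start of a gene, bound by the factors DSIF and NELF, and moves on once the kinase P-TEFb acts. H4 lysine 20 monomethylation covers the bodies of many transcribed genes, and the series title ties KMT5A to the release of polymerase II from promoter-proximal regions. The counts analysed here are 1 value a gene and do not separate the promoter-proximal part from the rest.

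The WT library held 3156055 reads in genes and the KO library 2317840. Every deposited count was even, and each was therefore divided by 2 to obtain reads. The median gene had 142 reads over both libraries. For each gene the log2 ratio of KO to WT reads was centred on the median gene, and its 95% counting interval is given after it. These intervals cover counting error only and say nothing of how livers of the same genotype differ. A gene was called higher or lower where KO and WT differed by at least 2-fold and the interval lay wholly on one side of 0. By this rule 1050 genes (6.8% of the 15449) were higher in KO and 942 (6.1%) were lower. Without the interval, at 2-fold alone, it would be 1157 (7.49%) and 1083 (7.01%). The 25th and 75th percentiles of all genes were -0.40 and 0.41. With 1 library a side no test between genotypes was possible, and every statement on run-on reads below compares these libraries. These shares, 6.8% and 6.1%, are the background against which the counts in gene lists are to be read. They change with read number. At 20 to 50 reads 13.6% were higher and 11.8% lower, and at 1000 reads or more 2.16% and 6.88%. Lists of thinly or deeply read genes thus have other backgrounds, and no list was matched for depth. A thinly read gene can reach the minimum through the library where it is high, which favours differences in such lists.

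The targeted gene gave 104 reads in WT and 92 in KO, a log2 ratio of 0.27 (-0.15 to 0.69). In EU labelling it had 473 reads in WT and 310 in KO (0.37, 0.16 to 0.58). Its mRNA values were 593, 615 and 1076 in the WT libraries and 1199, 1040 and 1075 in the KO libraries (limma adjusted p = 0.244). These counts are for the whole gene and so do not check a deletion within it. The liver identity of both libraries was plain from hepatocyte markers, all 15 of which were covered. Alb, which encodes serum albumin, had 13700 reads in WT and 8935 in KO, and Pck1, the gluconeogenic enzyme PEPCK, 15197 reads in WT and 6922 in KO. Most reads of all fell on ENSMUSG00000045999, which has no symbol in the annotation used, with 141733 reads in WT and 173735 in KO (0.74, 0.73 to 0.75). Among named genes the leader was the nuclear long noncoding RNA Malat1, with 26833 reads in WT and 14420 in KO. Neat1, the scaffold RNA of nuclear paraspeckles, had 16254 reads in WT and 26003 in KO and was called higher at 1.13 (1.10 to 1.16). Lars2, a mitochondrial leucyl-tRNA synthetase, had 20503 and 21660 reads.

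**Figure D1:**
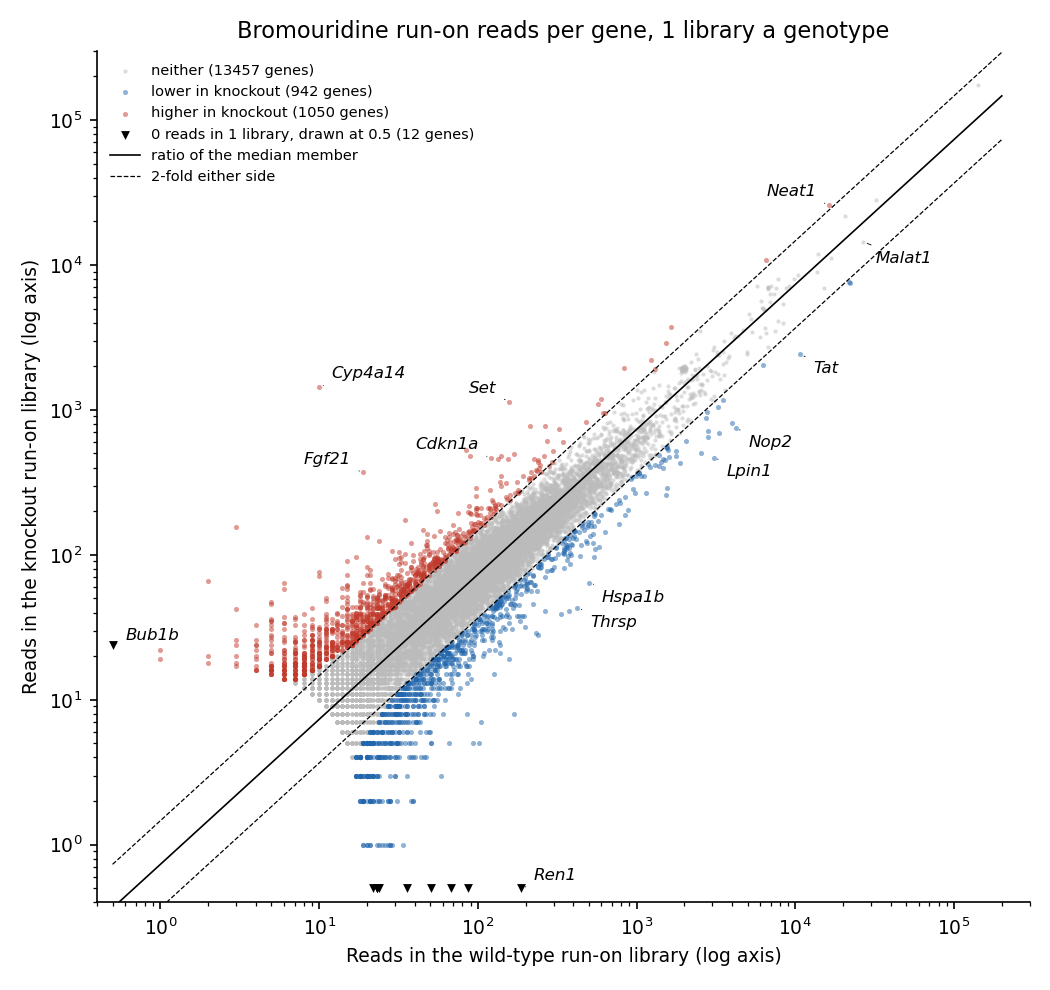
Reads per gene in the WT library (x axis, log scale) against the KO library (y axis, log scale) for the 15449 genes kept, with called genes coloured and the 12 genes at 0 in 1 library drawn as black triangles at 0.5 reads. Most genes lie along the diagonal, Cyp4a14 stands far above it and Ren1, with 188 reads in WT and 0 in KO, lies at the lower edge.

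The highest ratio among genes with at least 100 reads belonged to Cyp4a14, a fatty acid omega-hydroxylase and a classical target of the receptor PPAR alpha. It had 10 reads in WT and 1447 in KO, a log2 ratio of 7.63 (6.74 to 8.69). Fgf21, a hormone secreted by the liver in fasting and stress, had 19 reads in WT and 370 in KO, a ratio of 4.73 (4.07 to 5.48). Both genes were nearly silent in the WT library and among the well-read genes of the KO library. Rprl3, an RNA related to the RNA component of ribonuclease P, had 3 reads in WT and 155 in KO. Near-identical copies of such RNAs exist, so reads may be split between them.

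Further genes at the top of this order had very different known roles. Set, which encodes a histone chaperone and phosphatase inhibitor, had 157 reads in WT and 1141 in KO, a ratio of 3.31 (3.07 to 3.56). Tpst1, a Golgi enzyme that puts sulfate on tyrosines, had 84 reads in WT and 525 in KO, and Fam32a had 89 reads in WT and 477 in KO. Spon2, a secreted matrix protein, had 20 reads in WT and 132 in KO. Airn, the long noncoding RNA that silences neighbouring imprinted genes on the paternal chromosome, had 15 reads in WT and 91 in KO. Gstm3, a glutathione transferase, had 35 reads in WT and 175 in KO, and Adrb3, a beta-adrenergic receptor, had 17 reads in WT and 96 in KO. Over these 10 genes the lower bound of the ratio ran from 2.19 for Adrb3 to 6.74 for Cyp4a14, so counting error alone leaves each more than 2-fold higher. Airn overlaps Igf2r in the annotation, and the sources used here do not say whether counting used strand, so reads of the pair cannot be told apart. Many other genes named below also overlap another gene, for example Pde6h with Arhgdib, Dbp with Sphk2, Gls2 with Spryd4, Per3 with Camta1, Nr1d1 with Thra, Ell3 with Serinc4, Larp7 with the Mir302 cluster and Pklr with Hcn3, which was itself called lower with 533 and 121 reads.

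**Figure D2:**
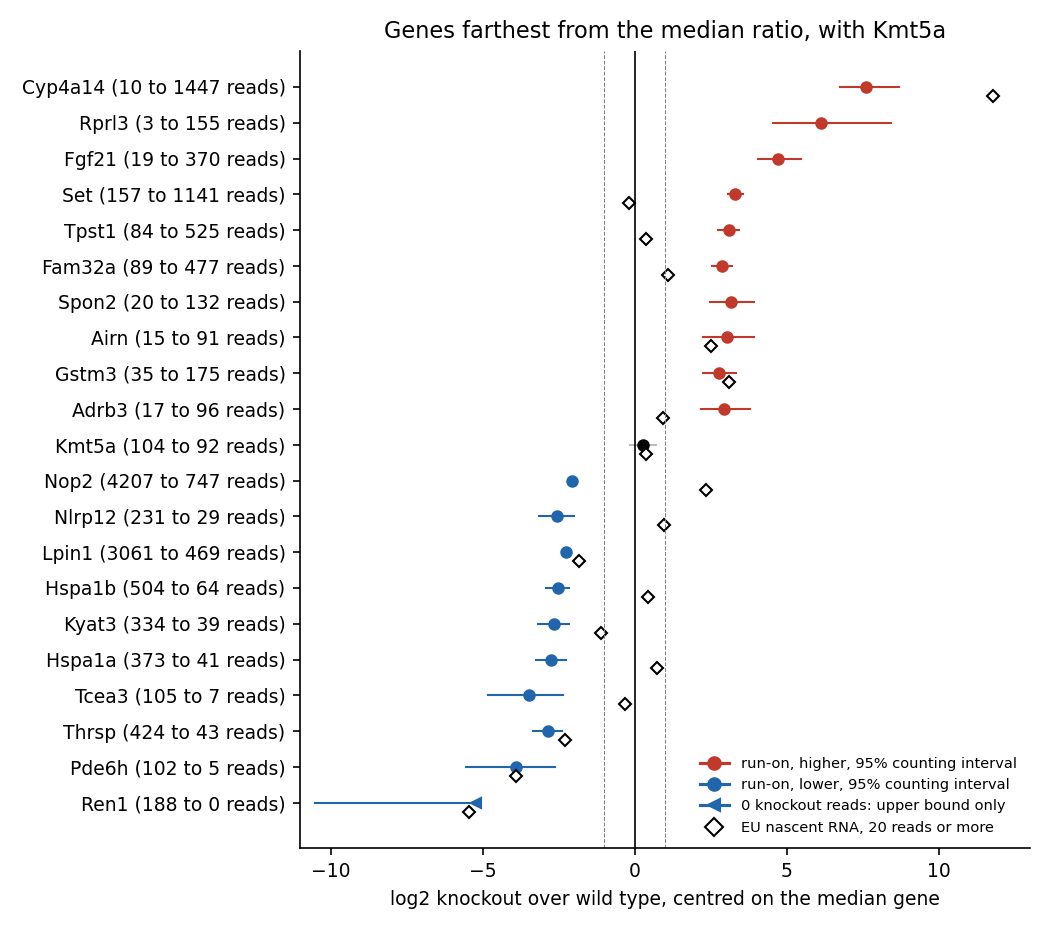
Log2 ratio of KO to WT (x axis) for Kmt5a, the 10 genes with the highest lower bound and the 10 with the lowest upper bound among those with at least 100 run-on reads; points are run-on ratios, bars their 95% counting intervals, and diamonds the EU ratio of the same gene where it had at least 20 EU reads. Cyp4a14 leads at 7.63 and Ren1, at 0 reads in KO, is drawn at the upper bound of its interval. The EU diamonds of Set, Nop2, Nlrp12, Hspa1a and Hspa1b lie on the other side of 0 from the run-on points.

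At the other end stood Ren1, which encodes renin, the protease that starts the angiotensin cascade. It had 188 reads in WT and 0 in KO. Against the 3 reads that a count of 0 allows, KO was at least 45.9-fold lower, and the 95% interval, which also covers counting error in WT, ended at -5.21. Pde6h, a phosphodiesterase subunit best known from cone photoreceptors, had 102 reads in WT and 5 in KO, a ratio of -3.90 (-5.55 to -2.63). Thrsp, also called Spot14, is a nuclear regulator of lipogenic enzymes in liver, and it had 424 reads in WT and 43 in KO, a ratio of -2.85 (-3.34 to -2.40). Tcea3, an elongation factor of the TFIIS family that rescues stalled polymerase II, had 105 reads in WT and 7 in KO. Kyat3, a kynurenine aminotransferase, had 334 reads in WT and 39 in KO. Lpin1, a phosphatidate phosphatase and coactivator of lipid metabolism, was much more deeply covered, with 3061 reads in WT and 469 in KO and a ratio of -2.26 (-2.40 to -2.12). Nlrp12, an innate immune regulator, had 231 reads in WT and 29 in KO, and a cluster of microRNAs overlaps it. Nop2, a nucleolar RNA methyltransferase, had 4207 reads in WT and 747 in KO, a ratio of -2.04 (-2.16 to -1.93).

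Genes with no read in 1 library numbered 12. Their folds are set against the same floor of 3 reads, which leaves out the counting error of the other library. Bub1b, a mitotic checkpoint kinase, was the only one at 0 in WT, with 24 reads in KO, which makes KO at least 10.9-fold higher. The other 11 were at 0 in KO. After Ren1, the best covered named ones were Rcan2, a calcineurin regulator, with 87 and 0 reads (at least 21.2-fold lower) and Serpina5, a protease inhibitor, with 51 and 0 (at least 12.5-fold lower). Meox2, a homeobox factor, and Kcng2, a potassium channel subunit, each had 23 reads in WT (at least 5.62-fold lower), and Dnm3, a dynamin, had 22 (at least 5.37-fold lower).

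The 2 genes of the inducible HSP70 chaperone, Hspa1a and Hspa1b, were among the 10 lowest. Heat shock factors bind the promoters of such genes through the heat shock element, and these promoters are textbook cases of paused polymerase II. Hspa1a had 373 reads in WT and 41 in KO, a ratio of -2.74 (-3.24 to -2.27), and Hspa1b had 504 reads in WT and 64 in KO, a ratio of -2.53 (-2.93 to -2.15). The coding sequences of the pair are nearly identical, so the counting may have split reads between them, and the pair is best read as 1 locus. Their promoters are shown because the heat shock element and the other motifs lie at the same places in both. Each line gives the 200 bases before the transcription start on the gene's strand, from RefSeq's GRCm38.p6 annotation.
Hspa1a, chr17:34972157-34972356, minus strand: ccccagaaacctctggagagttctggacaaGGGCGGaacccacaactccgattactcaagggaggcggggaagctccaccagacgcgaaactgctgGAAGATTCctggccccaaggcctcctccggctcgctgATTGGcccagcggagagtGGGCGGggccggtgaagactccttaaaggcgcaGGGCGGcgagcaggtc
Hspa1b, chr17:34959239-34959438, minus strand: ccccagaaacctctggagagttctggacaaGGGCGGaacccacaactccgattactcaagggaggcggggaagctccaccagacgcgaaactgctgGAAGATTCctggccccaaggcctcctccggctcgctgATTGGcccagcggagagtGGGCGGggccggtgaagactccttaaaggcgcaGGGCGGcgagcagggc
Capitals mark, from the 5′ end, a GC box (GGGCGG) at -170, a heat shock element (searched as GAANNTTC) at -104, a CCAAT box at -67, which reads ATTGG on this strand, and GC boxes at -49 and -16, each position being that of the motif's first base relative to the start. Of the 200 bases, 199 are the same in both (99.5%). A match of letters describes the sequence and is not evidence that a factor was bound.

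Because of these genes, the wider set of heat shock factors, chaperones and cochaperones was then listed after the values had been seen, and it is given as a description only. Of its 28 genes, 27 were covered, 0 were called higher and 7 lower, and 21 had a ratio below 0, with a median of -0.49. Besides the HSP70 pair, those called were Hsph1, an HSP110 exchange factor, with 540 reads in WT and 97 in KO (-2.03, -2.35 to -1.71), and Hspa8, the constitutive HSC70, with 1469 reads in WT and 400 in KO (-1.43, -1.59 to -1.27). Stip1, which links HSP70 to HSP90, had 212 and 65 reads, Dnajb1, an HSP40, 289 and 94, and Fkbp4, an HSP90 cochaperone, 455 and 161. The HSP90 genes did not reach 2-fold: Hsp90aa1 had 487 reads in WT and 191 in KO (-0.90, -1.15 to -0.66) and Hsp90ab1 1184 reads in WT and 577 in KO (-0.59, -0.73 to -0.44). The regulator Hsf1 had 149 and 79 reads (-0.47, -0.88 to -0.06) and Hsf2 146 and 136 (0.35, 0.00 to 0.69). In EU labelling, 26 of the 28 had enough reads, 2 were called higher and 4 lower, and the median was -0.38. Hspa1a had 33 in WT and 28 in KO among EU reads and Hspa1b 142 in WT and 98 in KO, and neither was called there. Of 27 tested in mRNA, 1 was called, the collagen chaperone Serpinh1, which rose (limma adjusted p = 0.0359). That call was lost when any library but the third WT one was left out.

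Genes of fatty acid synthesis lay mostly below the median, and the list of fatty acid oxidation genes and PPAR alpha targets mostly above it. In hepatocytes SREBP-1c and ChREBP (Mlxipl) drive fatty acid synthesis in the fed state, and PPAR alpha drives fatty acid oxidation in fasting. All 20 genes listed for fatty acid synthesis were covered. None was called higher, 5 were called lower, and 19 of 20 had a ratio below 0 (median -0.68), beside a background of 6.1% lower among all genes. Thrsp, given above, led the list. Scd1, the desaturase that makes oleate, had 1516 reads in WT and 448 in KO (-1.31, -1.46 to -1.16). Fasn, fatty acid synthase, had 2038 reads in WT and 607 in KO (-1.30, -1.43 to -1.17), and Acly, which supplies its acetyl-CoA, had 678 reads in WT and 208 in KO (-1.26, -1.49 to -1.03). Mlxipl itself had 3258 reads in WT and 1053 in KO (-1.18, -1.28 to -1.08), while Srebf1, the SREBP-1 gene, had 851 reads in WT and 453 in KO and was not called (-0.46, -0.63 to -0.29). The exception above 0 was Elovl2, an elongase, at 0.04 (-0.18 to 0.26). In the cholesterol pathway 1 of 24 genes was called lower and 0 higher, and the median was -0.24.

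In the list of fatty acid oxidation and PPAR alpha targets, 9 of 32 genes were called higher and 0 lower, and 23 were above 0 (median 0.28). The background was 6.8% higher among all genes. The median of the list lay within the quartiles of all genes, -0.40 and 0.41. Cyp4a14 and Fgf21, given above, belong to this list. Other omega-hydroxylases were called too, and Cyp4a31 had 55 reads in WT and 200 in KO (2.31, 1.87 to 2.77) and Cyp4a10 139 reads in WT and 478 in KO (2.23, 1.96 to 2.51). These paralogs are similar in sequence, so some reads may be shared among them, but Cyp4a14 differed from both in having almost no reads in WT. Vnn1, a pantetheinase that recycles the coenzyme A precursor, had 2 reads in WT and 66 in KO (5.49, 3.58 to 8.57). Cd36, a fatty acid transporter, had 3 reads in WT and 20 in KO, close to the minimum of reads. Pdk4, which blocks pyruvate dehydrogenase in fasting, had 74 reads in WT and 126 in KO (1.22, 0.79 to 1.65). The thioesterase genes Acot2, with 24 and 53 reads, and Acot1, with 32 and 48, were also called. Cpt1a, which admits fatty acids to mitochondria, was not called, with 686 reads in WT and 402 in KO (-0.32, -0.50 to -0.14). Ppara itself had 944 and 583 reads (-0.25, -0.40 to -0.10). Pparg, a related receptor that is normally low in liver, had 3 reads in WT and 42 in KO (4.26, 2.61 to 6.59). It reached the minimum of reads only through the KO library. Of 41 hepatocyte transcription factors it was the only one called higher, beside 6.8% among all genes, and 2 were lower.

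The promoters of a gene from each side are shown for the motifs they hold, again 200 bases before the start from RefSeq's GRCm38.p6.
Fgf21, chr7:45615491-45615690, minus strand: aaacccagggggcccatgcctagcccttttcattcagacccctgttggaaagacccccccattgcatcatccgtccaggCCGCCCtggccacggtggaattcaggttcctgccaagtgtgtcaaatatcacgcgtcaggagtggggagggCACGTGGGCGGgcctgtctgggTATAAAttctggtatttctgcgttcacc
Thrsp, chr7:97417551-97417750, minus strand: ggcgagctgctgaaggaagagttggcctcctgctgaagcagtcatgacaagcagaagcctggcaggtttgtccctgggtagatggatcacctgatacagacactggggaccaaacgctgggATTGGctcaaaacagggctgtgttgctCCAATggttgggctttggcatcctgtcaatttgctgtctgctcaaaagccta
In Fgf21 the capitals mark a TATA box (TATAAA) at -28, an E-box (CACGTG) at -50 that shares its last base with a GC box at -45, and a GC box on the other strand (CCGCCC) at -121. In Thrsp they mark CCAAT boxes at -79, on the other strand, and at -52. The share of promoters that hold each motif is given as a description. It covers the 10028 protein-coding genes kept that had a promoter listed, 591 of them called higher and 511 lower. TATA boxes were found in 10.7% of promoters of genes called higher, 9.51% of those called lower and 7.53% of promoters of all 10028. Windows were 300 bases and both strands were searched. For the E-box the shares were 6.38%, 9.98% and 9.46%, and for the heat shock element 7.03%, 5.39% and 5.83%. GC boxes were in 52.7%, 51.8% and 60.3%. Over all 32851 promoters of the table the shares were 13.6% for the TATA box, 7.15% for the E-box, 7.86% for the heat shock element and 35.7% for the GC box.

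Hepatocytes also break down amino acids and turn their nitrogen into urea, and most genes of this branch lay below the median. Of 41 genes for amino acid breakdown, 0 were called higher and 8 lower, and 37 were below 0 (median -0.58). Tat, the tyrosine aminotransferase induced by glucocorticoids and fasting, had 10764 reads in WT and 2427 in KO (-1.70, -1.76 to -1.64). Got1, the cytosolic aspartate aminotransferase, had 545 reads in WT and 110 in KO (-1.86, -2.17 to -1.56). Hal, the histidine lyase, had 1608 reads in WT and 474 in KO (-1.31, -1.46 to -1.16), and Gnmt, which uses methyl groups of S-adenosylmethionine, 2796 reads in WT and 966 in KO (-1.08, -1.19 to -0.98). Of 11 genes of the urea cycle and ammonia handling, 4 were lower and 1 higher. Ass1, argininosuccinate synthase, had 3970 reads in WT and 809 in KO (-1.85, -1.96 to -1.74), Asl, the lyase of the next step, 2726 reads in WT and 880 in KO (-1.18, -1.29 to -1.07), and Cps1, which commits ammonia to the cycle, 6289 reads in WT and 2052 in KO (-1.17, -1.24 to -1.09). Gls2, the liver glutaminase of periportal cells, had 632 reads in WT and 144 in KO (-1.68, -1.96 to -1.42). The one that was higher was Glul, glutamine synthetase, which is confined to the cells around the central vein, with 632 reads in WT and 944 in KO (1.03, 0.88 to 1.18).

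Genes of glucose handling lay mostly below the median, but few were called. In liver glycolysis 2 of 15 genes were lower, beside a background of 6.1% among all genes, and 12 were below 0 (median -0.33). Pklr, liver pyruvate kinase and a ChREBP target, had 383 reads in WT and 87 in KO (-1.69, -2.04 to -1.35), and Pfkfb3, which makes fructose 2,6-bisphosphate, 506 reads in WT and 135 in KO (-1.46, -1.74 to -1.18). Of 15 genes of gluconeogenesis and glycogen none was called, though 11 were below 0 (median -0.53), among them Fbp1 with 801 reads in WT and 321 in KO (-0.87, -1.06 to -0.68), Pck1 at -0.69 (-0.73 to -0.64) and G6pc, glucose 6-phosphatase, at -0.53 (-0.63 to -0.43). Genes of the tricarboxylic acid cycle (23, none called, median -0.01, or 0.08 when libraries were scaled to protein-coding reads) and of the respiratory chain (47, 1 called higher, median 0.19) sat near the middle. Acute-phase genes had a median of -0.52 over 24 with none called, and 15 genes of AMPK signalling a median of -0.49 with none called.

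**Figure D3:**
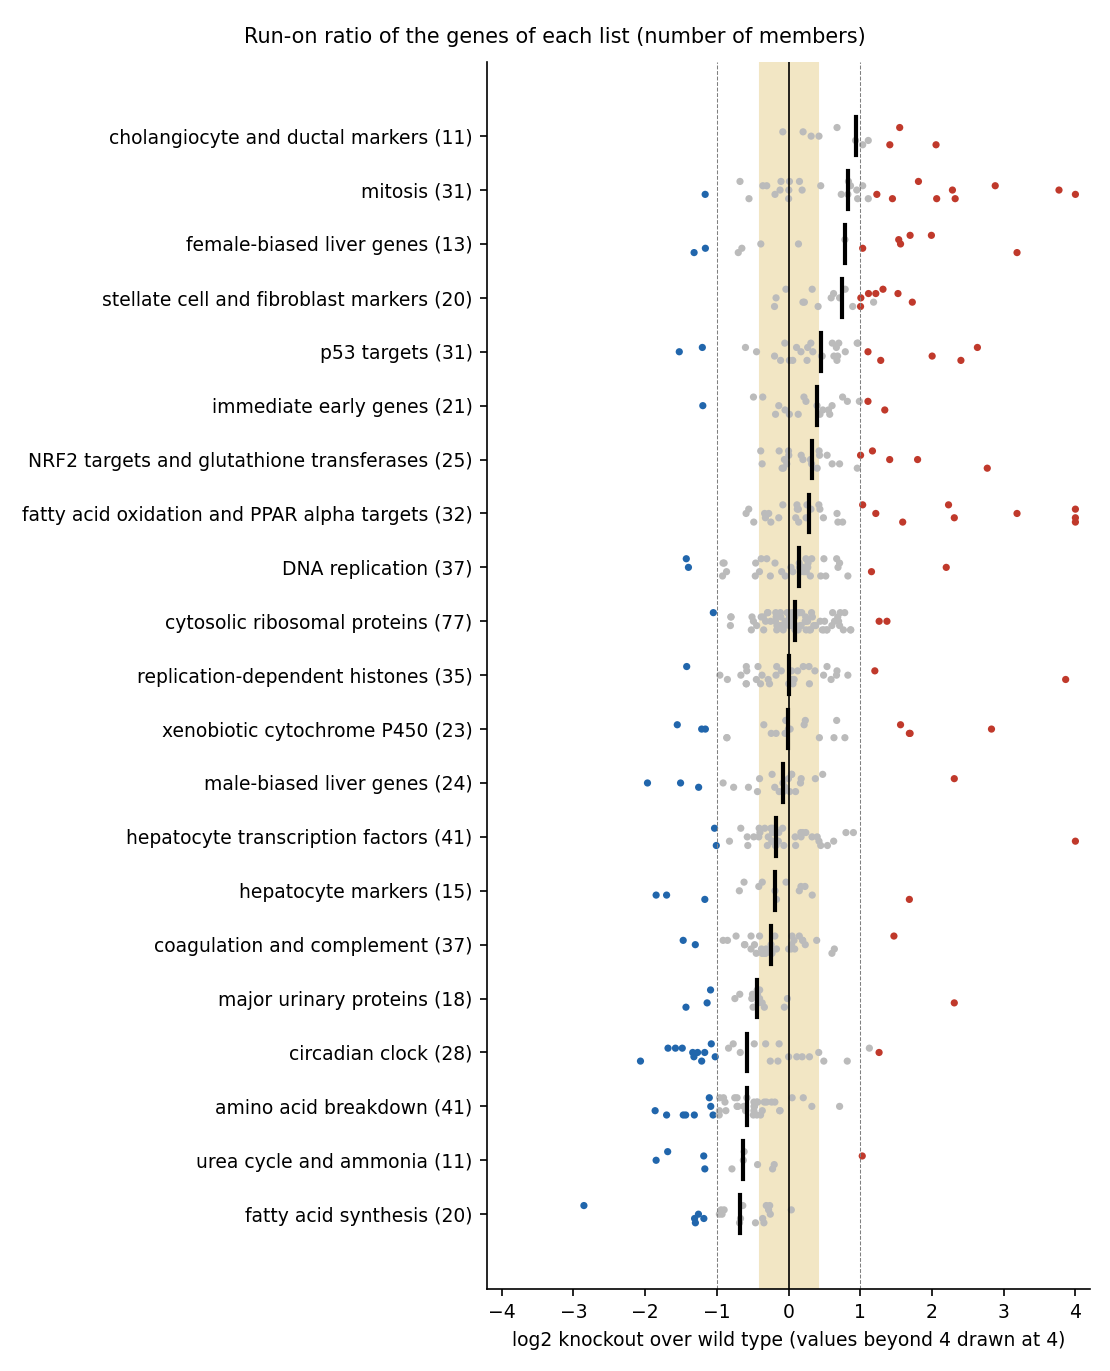
Run-on log2 ratio of KO to WT (x axis) of each covered gene in the lists that had at least 8 such genes and at least 3 called, 1 point a gene (red called higher, blue called lower, grey neither) and a black bar at each list's median; the shaded band runs from the 25th to the 75th percentile of all 15449 genes (-0.40 to 0.41), dashed lines mark 2-fold, and ratios beyond 4 are drawn at 4. Fatty acid synthesis, amino acid breakdown, the urea cycle and the circadian clock lie mostly left of 0, and mitosis, p53 targets and the stellate cell and cholangiocyte markers mostly right.

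The circadian clock had the most calls in 1 direction of any list. In its core loop, CLOCK and ARNTL activate Per and Cry genes, whose proteins shut them off, while the outputs Dbp and Tef carry the rhythm to metabolic genes. Of 28 covered genes 11 were lower and 1 higher (median -0.58), against backgrounds of 6.1% and 6.8%. The repressor genes Per3 (137 reads in WT and 24 in KO, -2.06, -2.75 to -1.43), Per1 (446 reads in WT and 117 in KO, -1.48, -1.79 to -1.18) and Per2 (239 reads in WT and 83 in KO, -1.08, -1.45 to -0.71) were all called lower. So were the outputs Tef (888 reads in WT and 203 in KO, -1.68, -1.91 to -1.46) and Dbp (789 reads in WT and 229 in KO, -1.34, -1.55 to -1.12), and the repressors Bhlhe41 and Bhlhe40, with 57 and 14 and 516 and 157 reads. Nr1d1 (REV-ERB alpha) had 1299 reads in WT and 533 in KO and missed 2-fold (-0.84, -0.98 to -0.69). The activators were not lower with them. Arntl had 62 and 41 reads (-0.15, -0.75 to 0.44) and Clock 184 and 146 (0.12, -0.21 to 0.44), and Npas2, which can replace Clock, was called higher with 33 reads in WT and 58 in KO (1.26, 0.62 to 1.93). Cry1 had 30 and 22 reads (0.00, -0.86 to 0.84), and Nfil3, the repressor that opposes Dbp, had 130 reads in WT and 168 in KO (0.82, 0.48 to 1.16). These genes cycle within a day, the labels give no time of death, and genotype and time of death cannot be told apart here.

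Targets of p53, the damage-responsive factor, lay mostly above the median. Of 31 covered, 5 were higher and 2 lower, and 24 were above 0 (median 0.46). Cdkn1a, the cell cycle inhibitor p21, had 121 reads in WT and 469 in KO (2.40, 2.11 to 2.70). Phlda3, an AKT inhibitor, had 11 reads in WT and 50 in KO (2.63, 1.67 to 3.72), and Gdf15, a secreted stress signal, 170 reads in WT and 499 in KO (2.00, 1.75 to 2.26). The 2 lower ones were Pidd1, with 51 and 13 reads, and Plk3, with 292 and 93. Mdm2, the ligase that degrades p53, had 412 reads in WT and 415 in KO and was not called (0.46, 0.26 to 0.66), nor was Trp53 itself (0.63, 0.24 to 1.03).

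Mitotic genes were covered thinly. KMT5A is itself a cell cycle protein, and cells that lose it are known to have trouble with replication and mitosis. Of 40 mitotic genes 31 reached 20 reads, and 9 of these were higher and 1 lower (median 0.83). A gene that reaches the minimum only through the library where it is high had to differ, so the count over covered genes favours differences. Beside Bub1b, those called were Mad2l1 (2 and 20 reads), Cenpe (5 and 27), Aurkb (6 and 22), Ect2 (7 and 25), Mki67, the marker Ki-67 (15 and 46), Ckap2 (7 and 18), Top2a (12 and 24) and Ccna2, cyclin A2 (25 and 43), in WT and KO in that order. In these genes the KO counts were 18 to 46 reads, so each ratio has a wide interval. The lower one was Kif23, with 223 reads in WT and 73 in KO (-1.16, -1.56 to -0.77), far above the others in WT. DNA replication genes were not shifted in the same way, with 2 higher and 2 lower of 37 and a median of 0.15. In DNA repair, Atr, the kinase that senses stalled forks, had 6 reads in WT and 34 in KO (2.95, 1.68 to 4.49), and 2 of 21 genes were higher. Of 35 replication-dependent histone genes 2 were higher, led by the linker histone gene Hist1h1b with 6 reads in WT and 64 in KO (3.86, 2.66 to 5.36), and 1 was lower.

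Detoxification genes were called in both directions. Among targets of NRF2 and glutathione transferases, 5 of 25 were higher and 0 lower (median 0.32). Beside Gstm3 these were Gsta4, with 20 reads in WT and 51 in KO (1.80, 1.03 to 2.62), Gstt3, with 19 and 37 reads, Gstm2, with 37 and 61, and Ephx1, microsomal epoxide hydrolase, with 281 reads in WT and 413 in KO, a ratio of 1.00 that just reaches 2-fold. Of 23 xenobiotic cytochrome P450 genes 4 were higher and 3 lower. Cyp3a11, the main mouse CYP3A of adult liver, had 828 reads in WT and 1950 in KO (1.68, 1.57 to 1.80), and Cyp2c38 24 reads in WT and 125 in KO (2.83, 2.19 to 3.53). Cyp2a5, the coumarin hydroxylase, had 484 reads in WT and 121 in KO (-1.55, -1.85 to -1.26). Its mRNA value was higher in every KO library than in any WT one (limma adjusted p = 0.176). Por, the reductase that all these enzymes need, had 1109 reads in WT and 351 in KO (-1.21, -1.39 to -1.04).

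Genes that differ between male and female liver, which growth hormone pulses control, split as well. Of 26 female-biased genes 13 were covered, 6 higher and 2 lower, and of 24 covered male-biased genes 1 was higher and 3 were lower. As for mitotic genes, the minimum of reads favours differences among the covered female-biased genes. The male-biased Selenbp2 had 1547 reads in WT and 290 in KO (-1.97, -2.15 to -1.78), and Hsd3b5, a steroid-metabolizing enzyme, 205 reads in WT and 63 in KO (-1.25, -1.68 to -0.84). Major urinary proteins, pheromone carriers made in large amounts by male liver, had 17 of 18 genes below 0, 3 of them called lower, among them Mup1 with 1780 reads in WT and 484 in KO (-1.43, -1.58 to -1.28). The exception was Mup20 (darcin), with 214 reads in WT and 778 in KO (2.31, 2.09 to 2.54). Mup genes are highly similar, and reads may be shared among them. The sex of the animals is not in the labels. The 5 covered genes of chromosome Y had 434 reads in WT and 294 in KO (median -0.07), with 0 called higher and 0 lower. Both libraries thus held reads of chromosome Y. Whether sex had a part in these lists was not tested.

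Markers of cells other than hepatocytes were compared next. In a library from whole-liver nuclei, more cells of a type and more RNA per cell cannot be told apart. Of 22 markers of stellate cells and fibroblasts 20 were covered, of which 7 were higher, 0 lower and 17 above 0 (median 0.75), and their summed level went from 556 to 869 CPM (reads scaled by the library's total). Collagen genes led, with Col1a1 at 26 reads in WT and 63 in KO (1.73, 1.05 to 2.44) and Col3a1 at 91 reads in WT and 192 in KO (1.53, 1.16 to 1.90). Sparc, a matrix protein, had 103 reads in WT and 188 in KO (1.32, 0.96 to 1.68), and Pdgfrb, the receptor that drives stellate cells, 74 reads in WT and 126 in KO (1.22, 0.79 to 1.65). Of 17 cholangiocyte and ductal markers 11 were covered, with 3 higher, 0 lower and 10 above 0 (median 0.93), among them Sox9, a ductal regulator, at 62 reads in WT and 133 in KO (1.55, 1.10 to 2.01) and Sox4 at 21 reads in WT and 64 in KO (2.06, 1.33 to 2.84). Here too the minimum of reads favours differences among the covered genes. The sum over all 17, covered or not, went from 381 to 539 CPM. Macrophage markers summed to 288 and 345 CPM (1 of 18 higher, 1 lower) and endothelial markers to 1581 and 1679 (0 of 22 higher, 1 lower). Hepatocyte markers summed to 26508 in WT and 20322 in KO. Timp1, a stellate cell marker, had no read in WT, and no marker of ducts, macrophages or endothelium was at 0 in either library. Only 4 of 20 lymphocyte markers, 2 of 10 neutrophil markers and 6 of 10 erythroid markers were covered at all, with sums of 78.3 and 72.1, 20.3 and 31.1, and 149 and 135 CPM. Markers with no read numbered 3 in WT and 3 in KO among lymphocyte genes (Ncr1 in both), 4 and 2 among neutrophil genes (S100a8 in both) and 1 and 2 among erythroid genes. The part of this shift in the other lists was not tested.

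The machinery around KMT5A and polymerase II itself was nearly level. Of 5 covered genes for H4 lysine 20 methylation none was called (median 0.27). Kmt5b, which adds the further methyl groups, had 562 reads in WT and 372 in KO (-0.15, -0.34 to 0.05), and Phf8, a demethylase of the monomethyl mark, 213 reads in WT and 209 in KO (0.42, 0.14 to 0.70). Of 30 genes for pausing and elongation 1 was higher and 1 lower (median -0.07, or 0.02 when libraries were scaled to reads of protein-coding genes), and their sum was 2366 in WT and 2362 in KO CPM. Supt5, a DSIF subunit, had 324 reads in WT and 180 in KO (-0.40, -0.67 to -0.13), Nelfa, a NELF subunit, had a ratio of 0.89 (0.50 to 1.29), and Cdk9, the P-TEFb kinase, had 170 reads in WT and 104 in KO (-0.26, -0.63 to 0.10). The higher one was Larp7, which binds the 7SK RNA that holds P-TEFb inactive, with 8 reads in WT and 21 in KO (1.84, 0.61 to 3.23), and the lower one the elongation factor Ell3, with 37 reads in WT and 12 in KO (-1.18, -2.25 to -0.20). The 7SK RNA, Rn7sk, had 6005 reads in WT and 3189 in KO (-0.46, -0.53 to -0.40). Of 12 subunits of polymerase II, Polr2f was lower, with 46 reads in WT and 9 in KO (-1.90, -3.12 to -0.86), and no other was called.

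Some kinds of small RNA genes stood apart from protein-coding ones. Small nuclear RNA genes did not, with 9 higher and 11 lower of 139 and a median of -0.03. Protein-coding genes had a median ratio of 0.00 over 12751 genes, with 798 higher and 643 lower. Small nucleolar RNAs, which guide the modification of ribosomal RNA and mostly lie in introns, had 44 higher and 5 lower of 181, with 142 above 0 and a median of 0.57. They took 1.91% of the WT library and 2.99% of the KO library. The deepest covered was Snord55, with 6524 reads in WT and 10848 in KO (1.18, 1.14 to 1.23), and Snord49a, also called higher, had 1235 reads in WT and 2191 in KO (1.28, 1.17 to 1.38). Most others of that depth were not called, among them Snord104 with 6993 reads in WT and 7165 in KO (0.48, 0.44 to 0.53), Snord118 with 5729 reads in WT and 7132 in KO (0.77, 0.71 to 0.82) and Snord13 with 1747 reads in WT and 1415 in KO (0.15, 0.04 to 0.25). In EU labelling the same kind had 134 higher and 5 lower of 151 (median 3.51), and 37 were higher in both methods.

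MicroRNA genes went the other way in the run-on. Of 77 covered, 23 were lower and 2 higher (median -0.41), against backgrounds of 6.1% and 6.8%. This was not particular to microRNAs. Of 42 genes annotated as miscellaneous RNA 11 were lower and 1 higher (median -0.75). Among 18 small Cajal body RNAs 4 were lower and 0 higher (median -0.24). Members of the let-7 family, which in adult tissues hold back growth genes, were lower together. Their genes lie on several chromosomes, but the sequences are similar, so reads may be shared among them and the genes are not independent. The mature sequences are shown because they share a seed, bases 2 to 8 (in capitals), the stretch that pairs with target RNAs (RefSeq, GRCm38.p6).
mmu-let-7a-5p: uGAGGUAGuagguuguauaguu
mmu-let-7b-5p: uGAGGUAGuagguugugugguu
mmu-let-7c-5p: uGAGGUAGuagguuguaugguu
mmu-let-7f-5p: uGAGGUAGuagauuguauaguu
mmu-let-7g-5p: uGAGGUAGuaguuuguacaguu
mmu-let-7i-5p: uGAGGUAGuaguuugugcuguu
Summed over the 7 covered genes with this seed, the WT library had 498 reads and the KO library 104. Reads shared among these genes may be counted more than once in this sum. Gm24111, which overlaps Mirlet7f-1 and is not among the 7, had 185 reads in WT and 35 in KO, close to the counts of Mirlet7f-2. Mirlet7f-2 had 195 reads in WT and 38 in KO (-1.91, -2.45 to -1.40), Mirlet7b 94 reads in WT and 24 in KO (-1.52, -2.23 to -0.86), and Mirlet7i 57 reads in WT and 12 in KO (-1.80, -2.83 to -0.88). Mirlet7a-1 was lowest, with 39 reads in WT and 4 in KO (-2.84, -4.78 to -1.37), and both let-7c genes were called lower, with 45 and 10 reads for Mirlet7c-1 and 52 and 10 for Mirlet7c-2. Mirlet7g, with 16 reads in WT and 6 in KO, just missed 2-fold (-0.97, -2.61 to 0.46).

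Another seed was shared by 3 covered genes, of which Mir15a (47 reads in WT and 4 in KO, -3.11, -5.04 to -1.65) and Mir195a (183 reads in WT and 45 in KO, -1.57, -2.08 to -1.10) were lower and Mir16-1 (15 reads in WT and 5 in KO, -1.14, -2.95 to 0.40) was not called. Mir192, an abundant liver microRNA with a different seed, had 264 reads in WT and 41 in KO (-2.24, -2.75 to -1.76). Their mature sequences, with the seed in capitals, are shown for comparison.
mmu-miR-15a-5p: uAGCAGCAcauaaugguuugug
mmu-miR-195a-5p: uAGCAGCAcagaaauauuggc
mmu-miR-16-5p: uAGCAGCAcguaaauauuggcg
mmu-miR-192-5p: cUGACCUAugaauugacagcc
In the EU libraries the direction was mostly the opposite. Of 21 microRNA genes lower in the run-on with at least 20 EU reads, 16 were called higher in EU, among them Mir192 with 969 in WT and 2751 in KO and Mir195a with 927 in WT and 2447 in KO. The EU median over microRNA genes was 1.60. Many of these genes lie inside longer transcripts, and whole-gene counts do not separate a hairpin's own reads from those of its host.

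**Figure D4:**
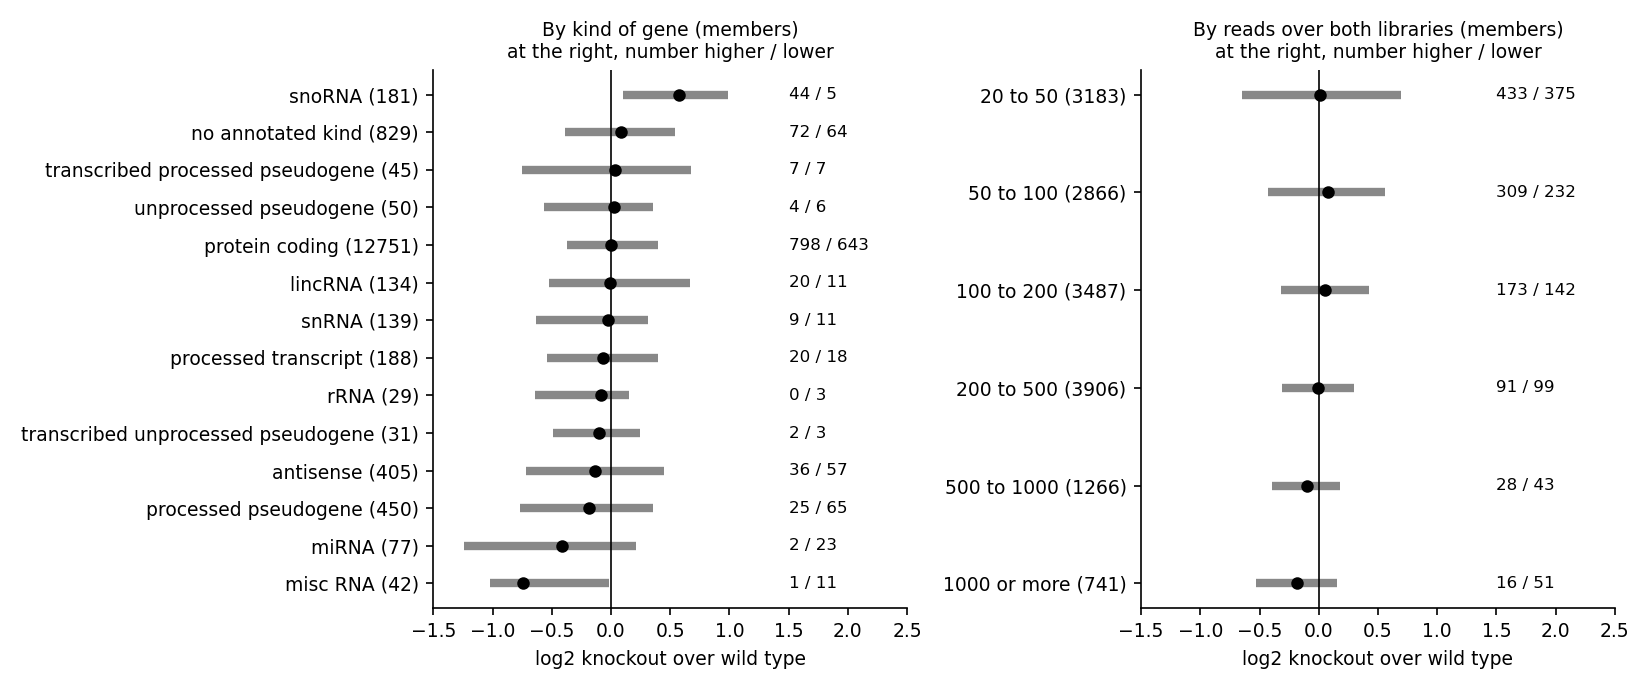
Median run-on log2 ratio of KO to WT (dots) with quartiles (bars) by kind of gene on the left and by read number over both libraries on the right, with the number of genes in parentheses and the numbers called higher and lower beside each bar. Small nucleolar RNAs sit at 0.57 and microRNAs at -0.41, and the median runs from 0.01 at 20 to 50 reads to -0.18 at 1000 reads or more.

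Median ratios varied little with gene length and position. Medians of protein-coding genes in 6 classes of genomic span ran from -0.04 to 0.02, and chromosome medians from -0.08 to 0.06. The shares called varied more. Of coding genes under 5 kb, 5.45% were higher and 7.96% lower. At 20 to 50 kb the shares were 6.44% and 4.24%, and at 200 kb or more 6.22% and 6.89%. On chromosome 11, 5.08% of genes were higher, and on chromosome 12, 8.78%. Read number mattered more. Between 20 and 50 reads 13.6% of genes were called higher and 11.8% lower, and at 1000 reads or more, where counting error is small, 2.16% were higher and 6.88% lower (16 and 51 of 741 genes). The median over these 741 genes was -0.18, and lower calls outnumbered higher ones among them. Processed pseudogenes had 25 higher and 65 lower of 450, and reads on them may belong to their parent genes.

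EU labelling follows RNA made over 30 min in the animal, where the run-on takes a picture of engaged polymerases, and it served as the other nascent readout. Its libraries held 10833287 reads in WT and 5583983 in KO. By the same rule 3738 genes (24.7% of 15131) were higher and 3402 (22.5%) lower, far more than in the run-on. Of the genes kept in the run-on, 13009 had at least 20 EU reads, and 2782 of them (21.4%) were higher and 2812 (21.6%) lower in EU. Across these genes the ratios of the methods had a Spearman correlation of 0.156, and over the 1668 genes with at least 500 reads in both it was 0.383. Both come from 1 pair of livers or pools per method and are descriptions. Of 782 genes higher in the run-on, 326 (41.7%) were higher in EU and 164 (21.0%) lower, and of 662 lower ones, 253 (38.2%) were lower in EU and 173 (26.1%) higher. The EU backgrounds are 21.4% higher and 21.6% lower, so the shares in the same direction lay above them, and so did the share of lower genes that were higher in EU. Fatty acid synthesis had 13 of 20 genes lower and 0 higher in EU, with Fasn at 29520 in WT and 1153 in KO, and cholesterol synthesis 17 of 24 lower, where the run-on had called 1. Of 31 PPAR alpha targets 20 were higher and 0 lower in EU, with Cyp4a14 at 2 in WT and 3564 in KO. Of 11 urea cycle genes 7 were lower, and Tat had 35044 in WT and 3983 in KO. Other lists were less alike. NRF2 targets and glutathione transferases, with 5 higher and 0 lower in the run-on, had 5 higher and 8 lower of 22 in EU, and Gsta4 had 62 in WT and 15 in KO. The clock, with 11 lower, had 5 lower and 3 higher of 27 in EU, where Per3 (4926 and 1678 EU reads), Per1 (810 and 311) and Tef (9767 and 4155) were not called.

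Some of the best covered genes differed in direction between the methods. Nop2 had 6849 and 17568 EU reads in WT and KO, a ratio of 2.34 (2.29 to 2.38), where the run-on gave -2.04. Vcp, the p97 ATPase that extracts ubiquitinated proteins, had 2804 reads in WT and 645 in KO in the run-on and 5128 in WT and 12908 in KO in EU, and its copy Vcp-rs, with which reads may be shared, had 2540 reads in WT and 506 in KO and 6036 in WT and 13276 in KO. Sdc4, a heparan sulfate proteoglycan, was the reverse, with 1646 reads in WT and 3755 in KO in the run-on (1.64, 1.55 to 1.72) and 13257 in WT and 2033 in KO in EU (-1.73, -1.80 to -1.66), and Tsku, a secreted protein of the liver, had 273 reads in WT and 606 in KO and 4094 in WT and 707 in KO. Sox13 had 1379 reads in WT and 412 in KO in the run-on and 275 in WT and 1833 in KO in EU. Por, lower in the run-on, had 3297 in WT and 6389 in KO in EU (1.93, 1.87 to 1.99). Set, among the highest in the run-on, had 707 in WT and 319 in KO in EU (-0.17, -0.37 to 0.02).

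The mRNA was the only replicated readout, with values scaled by the authors in 3 WT and 3 KO livers or pools. By limma 227 genes rose (1.35% of 16813) and 228 fell (1.36%) at an adjusted p under 0.05, and 200 and 185 of these were kept in the run-on. The p-values speak only for the spread among these 6 libraries, and nothing in the labels says what each library holds. Of the 200 that rose, 46 (23.0%) were higher in the run-on and 1 was lower (median ratio 0.46). Of the 185 that fell, 41 (22.2%) were lower and 5 higher (median -0.49). Backgrounds in the run-on were 6.8% and 6.1%. Over 13452 genes the run-on ratio and the mRNA change had a Spearman correlation of 0.180. The number of mRNA calls rests on few libraries. Of the 385 called genes kept in the run-on, 35 were still called without the second WT library, 23 without the second KO library, 88 without the first KO, 110 without the first WT, 184 without the third KO and 378 without the third WT library. Without the second KO library 6 of the 12 genes kept in the run-on that rose were higher there, and 6 of the 11 that fell were lower.

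**Figure D5:**
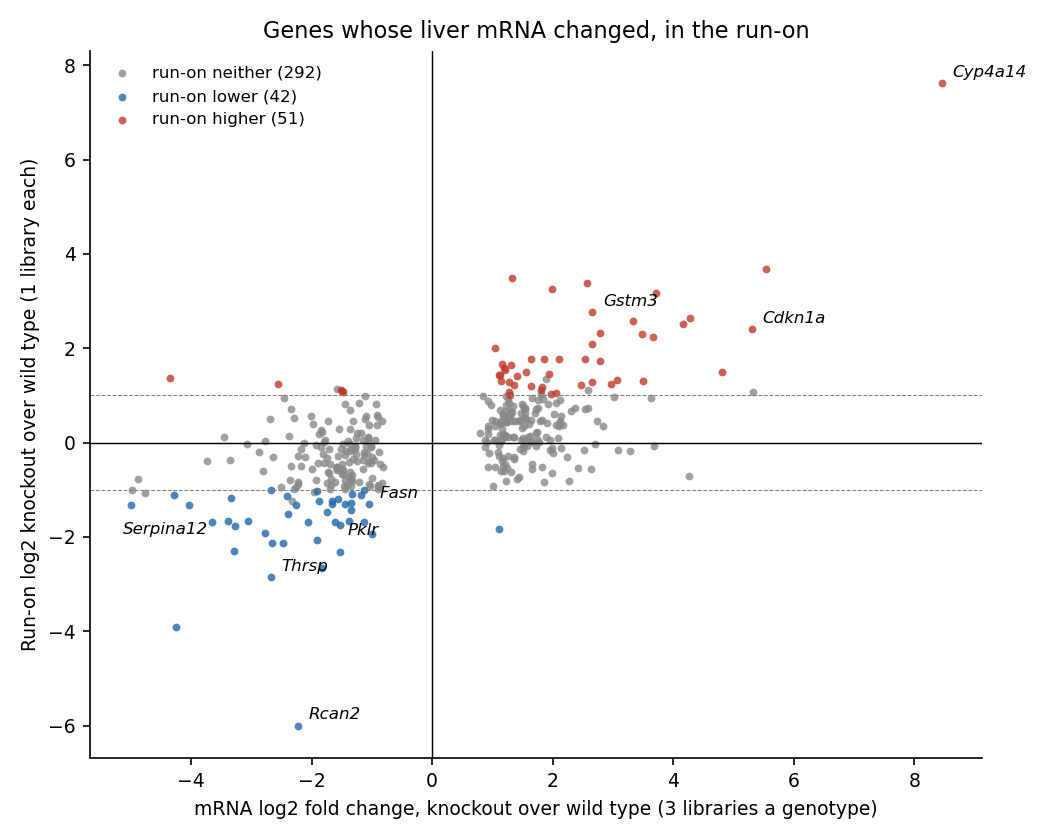
mRNA log2 fold change by limma (x axis) against run-on log2 ratio (y axis), both KO over WT, for the 385 genes called in mRNA and kept in the run-on; colours mark the run-on call and Rcan2, at 0 reads in KO, is drawn at -6. Of these genes 51 were higher, 42 lower and 292 neither in the run-on, and Cyp4a14 lies far from the rest at upper right.

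All 3 readouts went the same way for 27 genes that were higher and 24 that were lower. These come from 46 genes that rose in mRNA and were higher in the run-on, and 41 that fell and were lower. Not all of those had 20 EU reads. The EU backgrounds were 21.4% higher and 21.6% lower. In mRNA, the scaled values of Cyp4a14 were 64, 90 and 58 in the WT libraries and 30918, 19945 and 24260 in the KO libraries, a log2 fold change of 8.45 ± 0.24 (SE, n = 3 a group, limma adjusted p = 6.11e-06), with no overlap between the groups. Gstm3 had 1378, 1141 and 1224 in the WT libraries and 9617, 7099 and 7112 in the KO libraries, a change of 2.66 ± 0.20 (SE, n = 3 a group, limma adjusted p = 0.00313). Both calls, and that of Cyp4a31 (adjusted p = 0.000693), held with any 1 library left out. Cdkn1a rose by 5.31 ± 0.65 (SE, n = 3 a group, limma adjusted p = 0.0108), with 70, 21 and 16 in the WT libraries and 2210, 1443 and 518 in the KO libraries, beside 0 and 96 EU reads in WT and KO. Its call was lost without the second WT or the second KO library. On the lower side, Thrsp had 8656, 16900 and 20542 in the WT libraries and 1329, 2151 and 4017 in the KO libraries, a change of -2.68 ± 0.45 (SE, n = 3 a group, limma adjusted p = 0.0269), and 9572 in WT and 993 in KO among EU reads. That call was lost without the second WT, the first KO or the second KO library, although every KO value lay below every WT value. Pklr (adjusted p = 0.0189) was lost without the first or second library of either group. Fasn (adjusted p = 0.029) kept its call only without the third WT library. Rcan2 had 191, 163 and 145 in the WT libraries and 39, 30 and 35 in the KO libraries, a change of -2.23 ± 0.27 (SE, n = 3 a group, limma adjusted p = 0.0108), lost without the second library of either group, and Serpina12, a liver and fat serpin with 61 reads in WT and 18 in KO in the run-on, had a change of -5.00 ± 0.45 (SE, n = 3 a group, limma adjusted p = 0.00545) that held throughout.

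Several leading run-on genes were not called in mRNA. Fgf21 had 61, 46 and 189 in the WT libraries and 612, 264 and 76 in the KO libraries, with overlapping groups and an adjusted p of 0.33. Lpin1 had 1345, 5744 and 17100 in the WT libraries and 2090, 5428 and 13150 in the KO libraries, a spread within each group that exceeds the difference between them. Set had 1503, 1859 and 1736 in the WT libraries and 1172, 937 and 1005 in the KO libraries, a change of -0.71 ± 0.18 (SE, n = 3 a group, limma adjusted p = 0.0787), lower in every KO library where the run-on was higher. Hspa1a had 336, 299 and 326 in the WT libraries and 256, 199 and 227 in the KO libraries, with every KO value below every WT value, and Hspa1b 184, 121 and 170 in the WT libraries and 224, 203 and 212 in the KO libraries, with every KO value above, so the pair differed in direction. Neither was called (adjusted p = 0.21 and 0.34). In the clock, 4 genes fell and 2 rose in mRNA. Per3 fell (adjusted p = 0.00938, lost without the second WT library), as did Tef (adjusted p = 0.0396, lost without the first or second library of either group). Arntl rose (adjusted p = 0.0198, kept only without the first or the third WT library) and so did Nr1d1 (adjusted p = 0.0234, lost without the second WT, the first KO or the second KO library), neither of which was called in the run-on. Metabolic lists that lay low in the run-on differed in mRNA. The median mRNA log2 fold change was 0.01 over the 11 urea cycle genes and -0.14 over the 41 genes of amino acid breakdown, beside run-on medians of -0.63 and -0.58. Got1, lower in the run-on and in EU (2291 in WT and 117 in KO), went the other way in mRNA. It had 1815, 1956 and 2886 in the WT libraries and 4024, 3545 and 7852 in the KO libraries (limma adjusted p = 0.108). The mRNA median was -0.64 over the 20 genes of fatty acid synthesis (4 fell), -0.39 over 15 of glycolysis and -0.50 over 15 of AMPK signalling, beside run-on medians of -0.68, -0.33 and -0.49. Over the 32 fatty acid oxidation genes and PPAR alpha targets it was 0.26 (3 rose, 0 fell), beside 0.28 in the run-on. Vnn1 had 862, 520 and 1282 in the WT libraries and 1146, 1593 and 900 in the KO libraries (limma adjusted p = 0.473). Its EU reads were 48 in WT and 451 in KO, called higher.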

How the data were processed

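Bromouridine run-on was measured in 1 WT and 1 KO library, grouped by sample titles and genotype labels. Per the deposited files, whole-gene counts are given for 37583 genes, and the authors also deposited RPKM values per gene, used only as an alternative. Counts were all even and were divided by 2. The EU files hold counts as deposited by the authors. The mRNA files hold a score: values the authors scaled between the 6 libraries and rounded to whole numbers, so limma-trend on log2(value + 1) was used where a count test had been planned. It covered genes that reached 10 in 3 or more of the libraries (limma 3.58.1, R 4.3.3, Benjamini-Hochberg, two-sided). Genome build mm9 and the tools TopHat2, Bowtie2, Cufflinks, DESeq, SICER and MACS2 stand in the submitters' processing notes. Which tool counted, its annotation, filters and strand use are not given in the sources used here.

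Ratios of KO to WT reads were centred on the median gene kept, which lay at -0.45 on the log2 scale before centring, and exact Clopper-Pearson intervals of the KO share gave the 95% bounds (scipy 1.17.1). Genes at 0 were bounded with a floor of 3 reads per library. Symbols came from GENCODE M21, which matched 32860 genes and left 4723 unnamed, with 15.7% of WT and 20.0% of KO reads. Promoters and microRNAs came from RefSeq tables of GRCm38.p6, a later build than that of the files, so none of the files' coordinates were used. Promoters are 300 bases, 250 before and 50 after the start.

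Genes named by rule were the targeted gene, the 10 with the highest lower bound and the 10 with the lowest upper bound among named genes with at least 100 reads, the 5 with most WT reads, and in each of 45 gene lists (957 distinct genes kept) up to 3 called in the leading direction and up to 2 in the other. Genes beyond this rule were chosen after their values were seen. Members and lists were chosen with earlier results of these data known, and the heat shock list and heat shock element after the values were seen. The interval and limma scripts were tested on simulated data. Alternatives tried were other scalings (edgeR 4.0.16 for TMM and upper-quartile factors), read minimums, call rules, RPKM, and leaving out each mRNA library. Some genes are not reported here.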

Additional observations from a re-analysis of the deposited data

How the results depend on the processing

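Run-on calls depended on the rule more than on the scaling. With library totals, TMM or upper-quartile factors, 0.5 reads added, undivided counts, RPKM, a minimum of 10 reads or none, or protein-coding totals (chosen after seeing the data), both counts stayed within 1.5 times those reported. Upper-quartile factors gave 934 higher and 1056 lower, and protein-coding totals 1255 and 773, or 61.9% of calls higher against 52.7%; these moved the median gene by -0.05 and 0.09 on the log2 scale. Stricter rules left fewer calls: 620 higher and 567 lower at 50 reads, 318 and 322 at 100 reads, 355 and 385 at 3-fold, 206 and 206 with the interval wholly beyond 2-fold, and 383 and 320 among 5767 protein-coding genes that no other gene overlaps (chosen after seeing the data). Of 1413 values of 207 named genes under 7 alternatives, 1399 lay inside the reported interval and 0 reversed a called gene. Of 308 list medians 12 changed sign, all of them within 0.1 of 0. These alternatives reuse the same 2 libraries and mostly shift all ratios by 1 common amount. A called gene could therefore hardly reverse, and the counts are no check on the calls. At 100 EU reads, 1647 genes were lower in EU in place of 2812. In mRNA the replicate block gave 500 genes that rose and 514 that fell, in place of 227 and 228; the replicate numbers carry no stated pairing, and correlations between same-numbered libraries were 0.41, -0.24 and 0.20. Leaving out 1 mRNA library gave 13 to 785 genes that rose and 15 to 821 that fell. Depth limits the run-on most at 20 to 50 reads, and no setting supplies the spread between livers.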
